A study of Arabidopsis thaliana with 4 samples.

Results

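The genes described here are the 69 protein-coding genes of the Arabidopsis thaliana plastid genome that could each be tied to a probe set of their own. A probe set was taken as a member where the platform annotation gave 1 gene and the reference gene table placed that gene on the plastid genome; each of the 69 genes had 1 such probe set, of 22746 probe sets tested in all. They were sorted by symbol into 5 genes of photosystem I (psa), 15 of photosystem II (psb), 6 of the cytochrome b6f complex (pet), 6 of the ATP synthase (atp), 10 of the NDH complex (ndh), 15 of the plastid ribosome (rpl and rps), 4 of the plastid-encoded RNA polymerase (rpo) and 8 others. The gene table holds 78 plastid protein-coding symbols, and 7 of those, entered there for both arms of the inverted repeat, were measured by 8 further probe sets that list 2 gene entries and are described apart. The 37 tRNA and 7 rRNA entries of the plastid had no member.

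The study hybridised total RNA from aerial parts of plants 2 weeks old to 4 arrays, 2 of jaw-D (jaw-d in the labels) and 2 of Columbia controls. The jaw-D plants are an activation-tagged line, in which a T-DNA carrying enhancers raises the microRNA miR319a, and the labels describe 1 such line and name no other treatment or genotype. The microRNA targets messengers of several TCP transcription factors, which limit the growth of leaves, and the leaves of the line are uneven and crinkled. The labels do not state whether the 2 arrays of one genotype came from separate plants, so the p-values rest on a spread between arrays that may be technical.

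The plastid genome is a small circular molecule, a remnant of the genome of a cyanobacterium, and it is present in many copies in every leaf cell. It encodes core subunits of the photosynthetic complexes and part of the machinery of its own expression, while the remaining subunits and nearly all regulators are encoded in the nucleus. Neighbouring plastid genes are commonly transcribed together and then cut, edited and spliced into separate messengers. Transcription is shared by a bacterial-type polymerase whose core is encoded by the rpo genes and by a phage-type polymerase encoded in the nucleus. Most plastid messengers lack the long poly(A) tail of nuclear messengers, and the priming of the labelling reaction is not described in the labels.

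All 69 members lay above the highest value of the 27 Bacillus subtilis control probe sets, 353 units, on all 4 arrays. Deposited intensities of the members ran between 1366 and 91142 units. Together they made up 2.76% and 2.77% of the summed deposited intensity on the jaw-D arrays, against 2.95% and 2.78% on control 1 and control 2. The shares averaged 2.76% ± 0.00397 in jaw-D and 2.87% ± 0.125 in control (SD, n = 2 each), and the exact two-sided permutation test gave p = 0.33, the smallest value that 2 arrays against 2 allow. Control 1 stood above the other 3 arrays, so that the difference of -0.103 percentage points shrank to -0.0145 without it. It was -0.0588 with the probe sets of both gene copies added, and turned to 0.0139 after quantile normalization. In whole-tissue RNA, fewer plastids or plastid genomes per cell and less RNA from each cannot be told apart. Of the tissue markers, 3 of 10 leaf markers were measured, LHCB4.1, LHCB4.2 and RCA. Their summed deposited intensity was between 170831 and 172298 units in jaw-D and between 184713 and 209339 units in control. None of the 3 passed the limma test described below (adjusted p 0.317, 0.177 and 0.843). RCA overlapped, at 65816 and 65825 units in jaw-D and 79465 and 64406 units in control. Of 8 root markers 2 were measured, EXPA7 and EXPA18, summing to between 478 and 1006 units in jaw-D and between 826 and 911 units in control. The lists for flower and pollen (4 genes) and for seed (3 genes) had no named probe set. Whether the leaf-marker level bears on the plastid values was not tested.

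Intensities given below were quantile normalised between the arrays, and log2 differences are jaw-D minus control on the scale log2(value + 302.3), which understates changes at low intensity. Differences were tested with limma across all 22746 probe sets, and a gene was called at a Benjamini-Hochberg adjusted p under 0.05. Of the 69 plastid genes, 1 was called higher in jaw-D and 1 lower, the ATP synthase gene atpH and the ribosomal protein gene rpl33. Over the whole array 1.64% of probe sets were called higher and 2.54% lower, 4.19% in all, so the plastid counts are near the background. At an unadjusted p under 0.05 there were 3 higher and 10 lower plastid genes, against 10.1% and 9.79% of all probe sets. The median log2 difference of the 69 genes was -0.05, beside 0.01 for all probe sets. The absolute difference had a median of 0.09 among the plastid genes and of 0.14 among all probe sets. These sets were not matched for level, since every member lay above 353 units and many other probe sets did not. Of the 69 genes, 45 differed by under 0.2. In 12 genes both jaw-D values lay above both control values and in 17 both lay below, while in 40 the groups overlapped; over all probe sets the first 2 patterns held for 25.5% and 23.6%.

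**Figure D1:**
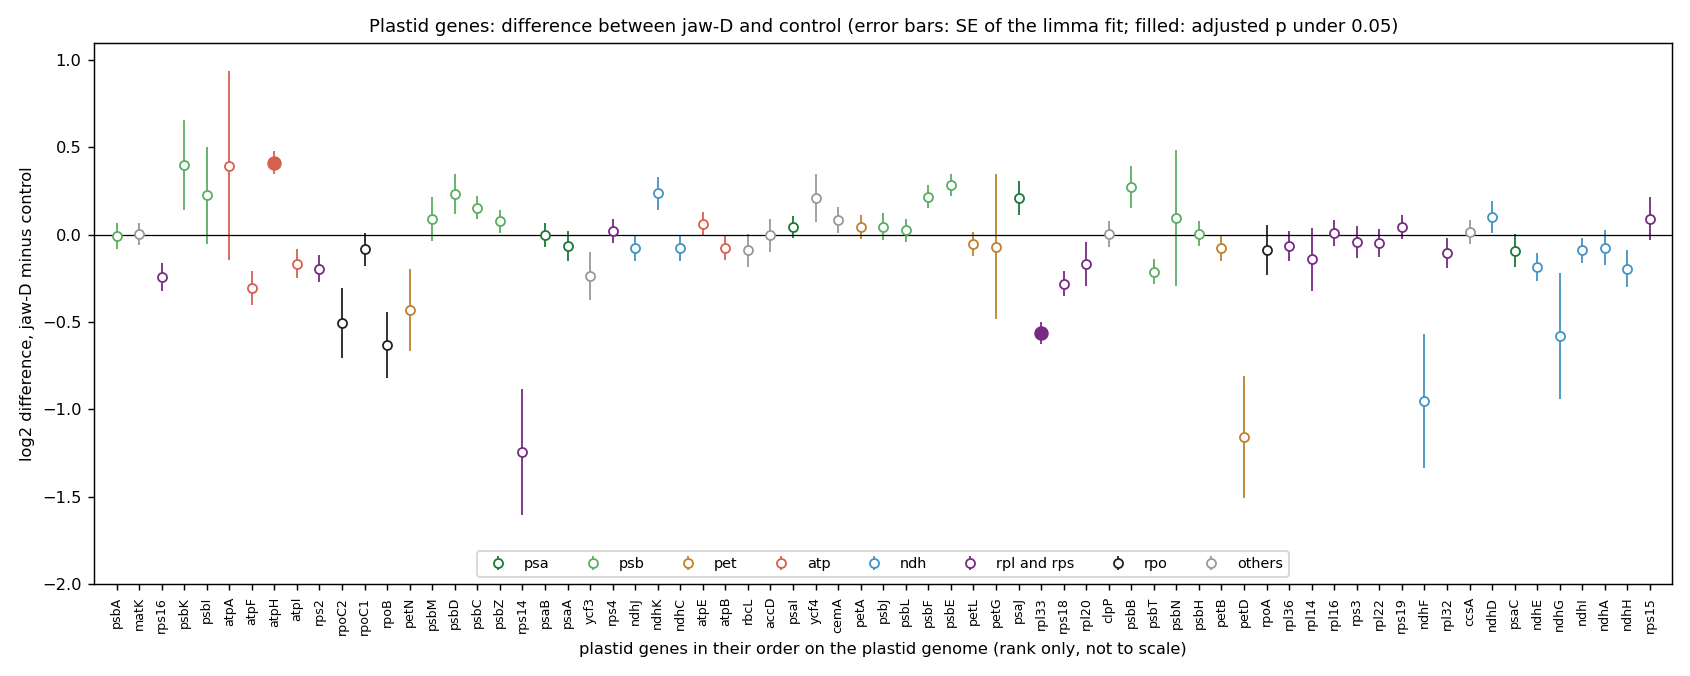
Log2 difference between jaw-D and control for each of the 69 plastid genes, in the order of the genes on the plastid genome (x axis, rank only), with the SE of the limma fit as error bar and colours for the functional groups. Filled points mark atpH (0.41) and rpl33 (-0.56), the genes called; the widest bars belong to genes whose arrays of the same group differed.

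Photosystem I, which passes electrons to ferredoxin, had no called gene among its 5 measured plastid subunits, and their differences ran between -0.09 and 0.21. psaB, encoding one of the large reaction centre proteins that bind the chlorophylls, had 83992 and 80670 units in jaw-D, against 80670 and 83992 units in control. Quantile normalization gave both groups the same pair of values in exchanged order, so its difference was 0.00 ± 0.07 (SE). Its partner psaA had 32514 and 28675 units in jaw-D, against 33118 and 30821 units in control, a difference of -0.06 with overlapping groups. psaC, which carries the iron-sulphur clusters on the stromal side, differed by -0.09, also with overlap. psaJ, a small membrane subunit, had 58868 and 55771 units in jaw-D, against 53929 and 45360 units in control. Its jaw-D values lay above both controls, by 0.21 ± 0.10 (SE), with an adjusted p of 0.321, and by 0.087 without control 2.

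Photosystem II splits water, and its 15 measured plastid genes held no called gene either. Here 13 of the 15 differences were positive, with a median of 0.09. In 6 of the 15 genes both jaw-D values lay above both control values, against 25.5% of all probe sets. The signs depended on the scaling: with each array centred on its own median the group's median was -0.03. psbE, the alpha subunit of cytochrome b559, had 30593 and 30354 units in jaw-D, against 24296 and 25588 units in control. The 2 arrays of each group lay close together, and the difference of 0.29 ± 0.06 (SE) had an adjusted p of 0.0745. psbF, the beta subunit of the same cytochrome, had 57011 and 56403 units in jaw-D, against 50196 and 47227 units in control, a difference of 0.22 with an adjusted p of 0.152. Both subunits of this cytochrome were thus higher on both jaw-D arrays than on either control array, without passing the test. Both passed with dim probe sets left out (adjusted p 0.0206 for psbE and 0.0417 for psbF), and after median centring psbE differed by 0.09 and psbF by 0.00. Passing with dim probe sets left out was common: of the 16441 probe sets kept, 1002 were called higher and 1148 lower. Of the 69 plastid genes, 3 were called higher and 7 lower under that setting.

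Of the reaction centre and inner antenna proteins of photosystem II, psbA, which encodes the rapidly replaced D1 protein, had 30193 and 33540 units in jaw-D, against 31813 and 32207 units in control. The groups overlapped and the difference was -0.01. psbD, encoding the D2 protein, had 25230 and 21058 units in jaw-D, against 21033 and 18154 units in control, a difference of 0.23 with an adjusted p of 0.339, and 0.11 without jaw-D 1. For the inner antenna gene psbC the values were 58726 and 60046 units in jaw-D, against 52428 and 54092 units in control, a difference of 0.16 with an adjusted p of 0.263. psbB, the other inner antenna gene, had 22142 and 17486 units in jaw-D, against 16744 and 15721 units in control. Its difference was 0.27 ± 0.12 (SE, adjusted p 0.283), and 0.11 without jaw-D 1. psbM, a small subunit at the dimer interface, differed by 0.09 with overlap.

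Among the small subunits, psbT had 10411 and 10566 units in jaw-D, against 12688 and 11714 units in control. It was the photosystem II gene with both jaw-D values below both controls, at -0.21 ± 0.07 (SE, adjusted p 0.174), and it passed after median centring of the arrays (-0.36, adjusted p 0.0403). psbK and psbI, neighbours on the genome that encode small core subunits, had one array apart from the others. psbK had 28479 and 15627 units in jaw-D, against 16010 and 15829 units in control. psbI had 28970 and 15161 units in jaw-D, against 17836 and 17931 units in control. In both genes jaw-D 1 was high and jaw-D 2 was below the controls; the differences were 0.40 and 0.23, and -0.03 and -0.23 without jaw-D 1.

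The cytochrome b6f complex links the photosystems, and none of its 6 measured plastid genes was called. petA, encoding cytochrome f, had 60046 and 61871 units in jaw-D, against 60382 and 57712 units in control, a difference of 0.05. petB, encoding cytochrome b6, had 58782 and 63232 units in jaw-D, against 63734 and 65035 units in control, a difference of -0.08. These core subunits differed by less than 0.1 either way. petD, encoding subunit IV, had 2238 and 2736 units in jaw-D, against 8857 and 3888 units in control. Its log2 difference of -1.16 ± 0.35 (SE) was the second largest among the members and had an adjusted p of 0.144. Control 1 was high: without it the difference was -0.59. With dim probe sets left out petD passed, at an adjusted p of 0.0123. petN, one of the small subunits, had 4948 and 5344 units in jaw-D, against 9226 and 5351 units in control. Control 1 was again high, and the difference of -0.43 was -0.05 without it. petG, another small subunit, had 7125 and 3162 units in jaw-D, against 6841 and 3658 units in control, so that the first array of each group was high and the groups overlapped.

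The plastid ATP synthase makes ATP from the proton gradient across the thylakoid membrane, and 1 of its 6 measured plastid genes was called. atpH (ArthCp009), encoding subunit c of the membrane ring, had 43526 and 42113 units in jaw-D, against 32803 and 31368 units in control. The groups were well apart, with a mean of 42820 ± 999 units in jaw-D and 32086 ± 1015 units in control (SD, n = 2 each). The log2 difference was 0.41 ± 0.07 (SE), a 1.33-fold higher level, with an adjusted p of 0.0346. The call ended without quantile normalization (0.32 as deposited, adjusted p 0.0889) and after median centring of the arrays (0.23, adjusted p 0.168). It also ended without the variance trend (adjusted p 0.117), where 14 probe sets of the whole array were called higher and 51 lower. With any 1 array left out the difference was 0.38 to 0.45. Such a fit leaves 1 array in a group, so it cannot decide whether a gene passes.

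atpF, which encodes a stalk subunit and lies beside atpH, had 25588 and 21645 units in jaw-D, against 27980 and 30290 units in control. Both jaw-D values lay below both controls, with a difference of -0.30 ± 0.10 (SE, adjusted p 0.166), which was -0.18 without jaw-D 2 and passed with dim probe sets left out (adjusted p 0.0442). atpI, encoding subunit a on the other side of atpH, had 5365 and 5172 units in jaw-D, against 6302 and 5598 units in control, a difference of -0.16 (adjusted p 0.368), and -0.083 without control 1. Both neighbours of atpH thus had differences opposite in sign to its own. atpA, the alpha subunit of the catalytic head, had 55137 and 17817 units in jaw-D, against 17551 and 32160 units in control. No other member had so wide a spread within groups, and its difference of 0.40 carried an SE of 0.54. atpB, the beta subunit, had 81605 and 86028 units in jaw-D, against 86028 and 90404 units in control, and differed by -0.07.

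The NDH complex cycles electrons around photosystem I, and none of its 10 measured plastid genes was called. Their median difference was -0.08, with 2 positive and 8 negative differences. ndhI, which carries iron-sulphur clusters, had 51655 and 55564 units in jaw-D, against 57827 and 56127 units in control, a difference of -0.09. ndhK, another subunit of the peripheral arm, had 17029 and 16400 units in jaw-D, against 12948 and 15431 units in control, a difference of 0.24 with an adjusted p of 0.253, and 0.11 without control 1. In the group, 8 of 10 differences lay between -0.19 and 0.24, and that of ndhK was the highest. The other 2 genes, both membrane subunits, were high on control 1. ndhF had 2427 and 2040 units in jaw-D, against 7235 and 2863 units in control, a difference of -0.95 (adjusted p 0.25), and -0.32 without control 1. It passed with dim probe sets left out (adjusted p 0.0471). ndhG had 5300 and 5772 units in jaw-D, against 12921 and 5437 units in control, a difference of -0.58 (adjusted p 0.462), and 0.02 without control 1.

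Among the 15 measured genes of the plastid ribosome, which makes the plastid-encoded proteins, 1 was called lower and none higher. rpl33 (ArthCp043), a protein of the large subunit that in tobacco is dispensable except in the cold, had 22356 and 23312 units in jaw-D, against 33424 and 34287 units in control. Both arrays of each group lay within 0.06 of each other on the log2 scale, and the groups did not overlap. The means were 22834 ± 676 units in jaw-D and 33855 ± 610 units in control (SD, n = 2 each). rpl33 fell by 0.56 ± 0.06 (SE) on the log2 scale, to 0.677 times the control level, with an adjusted p of 0.0198. It passed as deposited (-0.68, adjusted p 0.0158), after median centring of the arrays (-0.77, adjusted p 0.0085) and after centring on the plastid genes (-0.51, adjusted p 0.00812). It did not pass without the variance trend (adjusted p 0.0811). Dropping single arrays in turn gave rpl33 differences of -0.59 to -0.53. As for atpH, those fits have 1 array in a group and cannot decide whether rpl33 passes.

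rps18, of the small subunit and next to rpl33 on the genome, had 12115 and 12934 units in jaw-D, against 15583 and 14926 units in control. Both jaw-D values lay below both controls, at -0.28 ± 0.07 (SE) with an adjusted p of 0.0929, and the gene passed after median centring of the arrays (-0.44, adjusted p 0.0235) and with dim probe sets left out (adjusted p 0.0471). rps2, of the small subunit, had 27330 and 30750 units in jaw-D, against 32826 and 33568 units in control, a difference of -0.19 (adjusted p 0.255), and -0.11 without jaw-D 1. rps14, a small-subunit gene, had 1316 and 1586 units in jaw-D, against 5901 and 2458 units in control. Its difference of -1.24 ± 0.36 (SE) was the largest of all members in size, and did not pass (adjusted p 0.134), with the control arrays 1.17 apart. Without control 1 it was -0.66, and both jaw-D values still lay below control 2. With dim probe sets left out rps14 passed, at an adjusted p of 0.0101. rpl16 had 60823 and 65800 units in jaw-D, against 64813 and 60823 units in control, and differed by 0.01. rpl14 differed by -0.14 and rps15 by 0.09, both with overlap, and the other 8 ribosomal genes lay between -0.24 and 0.05. In all, 11 of the 15 ribosomal differences were negative, with a median of -0.10. In 5 of the 15 genes both jaw-D values lay below both controls, against 23.6% of all probe sets.

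**Figure D2:**
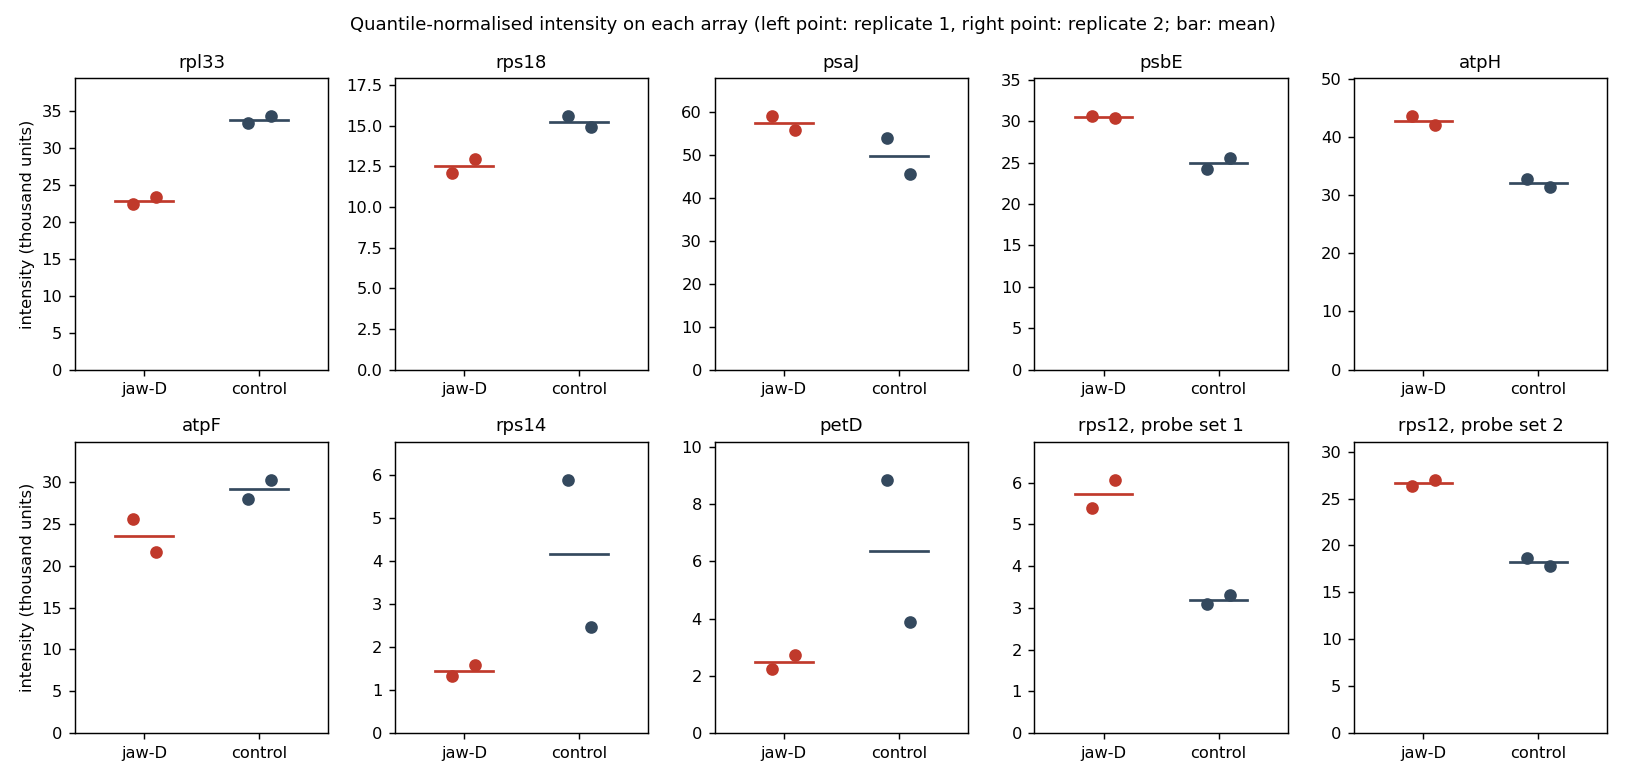
Quantile-normalised intensity (y axis, starting at 0) of 8 plastid genes and of the 2 probe sets for rps12 on each array, with jaw-D at the left and control at the right of each panel; points are arrays and bars are group means. The arrays of a group lie close together for rpl33, atpH, psbE and rps12, while control 1 lies far above control 2 for rps14 and petD.

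The 4 rpo genes encode the core of the bacterial-type plastid polymerase, and none was called, although all 4 differences were negative (median -0.29). rpoB, the beta subunit, had 1754 and 1530 units in jaw-D, against 3315 and 2191 units in control. The difference was -0.63 ± 0.19 (SE, adjusted p 0.144), and -0.36 without control 1, and it passed with dim probe sets left out (adjusted p 0.0238). rpoC2 had 7539 and 10396 units in jaw-D, against 10755 and 14932 units in control, a difference of -0.50 ± 0.20 (SE, adjusted p 0.245). It was -0.28 without jaw-D 1 and -0.27 without control 2. In both genes the jaw-D values lay below both controls, as in 23.6% of all probe sets. rpoC1, from the same transcript, differed by -0.08 and rpoA by -0.08, both with overlapping groups. Genes were also sorted by the polymerase known to make most of their messenger. The 27 of the bacterial-type polymerase had a median of 0.04, and the 38 mixed or unclassed genes -0.07. The 4 of the nuclear-encoded polymerase, rpoB, rpoC1, rpoC2 and accD, had a median of -0.29. Of these, rpoB, rpoC1 and rpoC2 share a transcript, and accD differed by -0.0034. The difference between the classes was not tested.

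The 8 remaining genes covered carbon fixation, protein turnover and assembly, with differences between -0.24 and 0.21 and no call. rbcL, the large subunit of Rubisco, had 21337 and 23825 units in jaw-D, against 22420 and 25717 units in control. The groups overlapped and the difference was -0.09 ± 0.10 (SE). ccsA, needed to attach haem to c-type cytochromes, had 57712 and 53966 units in jaw-D, against 55564 and 54910 units in control, a difference of 0.01. The extremes were the photosystem I assembly factors ycf3, with 13809 and 18233 units in jaw-D, against 19744 and 17776 units in control (-0.24, adjusted p 0.429), and ycf4, with 25795 and 21719 units in jaw-D, against 23021 and 18114 units in control (0.21, adjusted p 0.482). Both had overlapping groups, and their differences were -0.039 for ycf3 without jaw-D 1 and 0.040 for ycf4 without control 2. matK, an intron maturase, and accD, a subunit of acetyl-CoA carboxylase, each differed by less than 0.01 either way. clpP, a protease subunit, differed by 0.01 and cemA, an envelope membrane protein, by 0.08.

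The inverted repeat of the plastid genome carries a further copy of several genes, and the 8 probe sets that list both copies are given by their shared symbol. They were left out of the 69, and were singled out after their values were seen. Of these 8 probe sets, 3 were called higher in jaw-D, against 1.64% of all probe sets, and none was called lower. Both probe sets for rps12 (a protein of the ribosomal decoding centre, whose messenger is joined by trans-splicing from separately transcribed pieces) were called. The first rps12 probe set had 5401 and 6073 units in jaw-D, against 3089 and 3308 units in control, a difference of 0.79 ± 0.09 (SE) with an adjusted p of 0.0209. The second rps12 probe set had 26350 and 27003 units in jaw-D, against 18660 and 17850 units in control, a difference of 0.54 ± 0.06 (SE) with an adjusted p of 0.0211. Neither probe set had overlapping groups. The second missed the threshold after median centring of the arrays (0.33, adjusted p 0.0531), while the first passed under each scaling. Without the variance trend, 11 of the calls on named plastid genes, probe sets of both copies and nuclear genes were lost, atpH and rpl33 included. With any 1 array left out the differences were 0.70 to 0.87 for the first and 0.51 to 0.57 for the second.

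The third called probe set was that of ycf1, which encodes a large protein assigned to the plastid import apparatus. It had 32615 and 34416 units in jaw-D, against 26203 and 25661 units in control, a difference of 0.37 ± 0.07 (SE) with an adjusted p of 0.0437. This call ended as deposited (0.26, adjusted p 0.141) and after median centring (0.16, adjusted p 0.301). With any 1 array left out the difference was 0.33 to 0.40. rps7, a ribosomal gene beside rps12, had 79549 and 81605 units in jaw-D, against 61871 and 68519 units in control (0.31, adjusted p 0.101), and passed with dim probe sets left out (adjusted p 0.00878) and after centring on the plastid median (adjusted p 0.0377). ndhB, the next gene, had 1804 and 1929 units in jaw-D, against 4257 and 2232 units in control (-0.65, adjusted p 0.258), and ycf2 had 917 and 1094 units in jaw-D, against 2113 and 1334 units in control (-0.61, adjusted p 0.186). In ndhB and ycf2 control 1 was again the high array, and without it the differences were -0.23 and -0.33. ycf2 passed with dim probe sets left out (adjusted p 0.0391). The ribosomal genes rpl2 and rpl23 differed by 0.18 and 0.04.

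Genes of one transcript often differed in sign or size. In the psaJ, rpl33 and rps18 transcript the differences were 0.21, -0.56 and -0.28, with opposite signs at its ends. The groups did not overlap in any of the 3 genes. Over all probe sets, 25.5% had both jaw-D values above both controls and 23.6% had both below. With any 1 array left out psaJ differed by 0.087 to 0.34. In the transcript of rps2, atpI, atpH, atpF and atpA they were -0.19, -0.16, 0.41, -0.30 and 0.40. In the psbB transcript psbB was at 0.27, psbT at -0.21, psbH at 0.01, petB at -0.08 and petD at -1.16. For psaA, psaB and rps14 they were -0.06, 0.00 and -1.24. Differences lay closer together in other transcripts. psbD, psbC and psbZ had 0.23, 0.16 and 0.08. In all 3 genes both jaw-D values lay above both controls, a pattern held by 25.5% of all probe sets. psbE, psbF, psbL and psbJ had 0.29, 0.22, 0.03 and 0.05. No difference between members of a transcript was tested, and the probe sets of a transcript can cover differently processed messengers.

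Where members departed most from 0, the arrays of the same group often disagreed. In 12 of the 69 genes the 2 arrays of at least 1 group were over 0.5 apart on the log2 scale, 6 genes within jaw-D and 9 within control, with 3 in both. These were 8.7% and 13% of the members, against 0.866% and 1.08% of the 7624 probe sets at or above the mean level of the dimmest member. The median distance between arrays of a group was close to that of those probe sets, 0.10 against 0.10 within jaw-D and 0.11 against 0.10 within control, so the wide spread belonged to a few genes. In 8 of the 9 genes that differed within control, control 1 was the higher array, and in 5 of the 6 that differed within jaw-D, jaw-D 1 was. Of the 11 members with a mean under 10000 units, 8 were among these 12, and of the 58 others, 4 were. Among the genes with a group difference over 0.5 either way, 5 of 7 had such a spread, rpl33 and rpoC2 being the others. The 57 genes whose arrays agreed within 0.5 differed between groups by -0.56 to 0.41, and 53 of them by under 0.3. What set these single arrays apart was not tested.

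**Figure D3:**
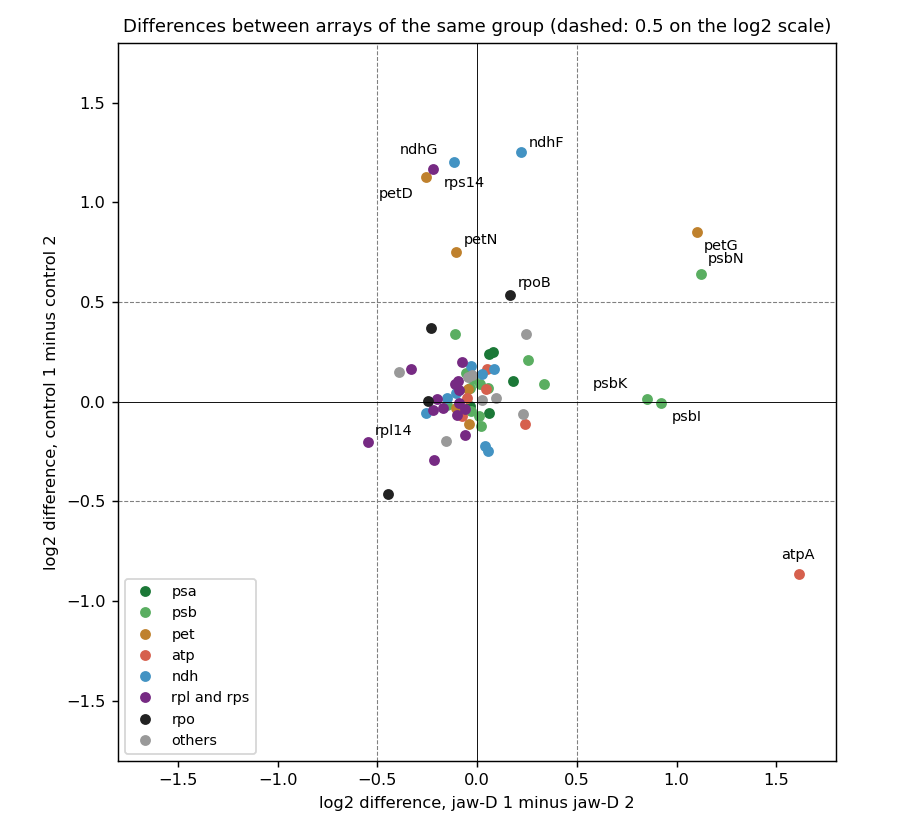
Log2 difference between the 2 jaw-D arrays (x axis) and between the 2 control arrays (y axis) for the 69 plastid genes, coloured by functional group, with dashed lines at 0.5 either way. Most genes lie near the centre; ndhF, ndhG, rps14, petD, petN and rpoB lie above on control 1, psbK and psbI to the right on jaw-D 1, petG and psbN on both, and atpA to the lower right.

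The median of the plastid genes depended on the scaling. It was -0.05 after quantile normalization, -0.12 as deposited and -0.21 after median centring of the arrays, while that of all probe sets was 0.01, 0.04 and -0.06. Relative to all probe sets the plastid genes were thus at -0.05, -0.15 and -0.15. Median centring lowered the difference of every probe set by the same amount from its value as deposited. The last 2 values are therefore equal by construction. Negative differences numbered 38, 51 and 58 of 69 under these scalings, and calls numbered 2, 1 and 3. The rise from 51 to 58 follows from that common shift. rpl33 was the gene called in all 3 scalings. Called genes were atpH and rpl33 after quantile normalization, rpl33 as deposited, and rpl33, rps18 and psbT after median centring. Over the whole array 2.14% were called higher and 2.84% lower as deposited, 1.09% and 4.3% after median centring, and 3.53% and 2.7% after centring on the plastid median. That last scaling sets the plastid median near 0, with 35 positive and 34 negative differences, and called atpH, psbE (0.34, adjusted p 0.0402) and rpl33.

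**Figure D4:**
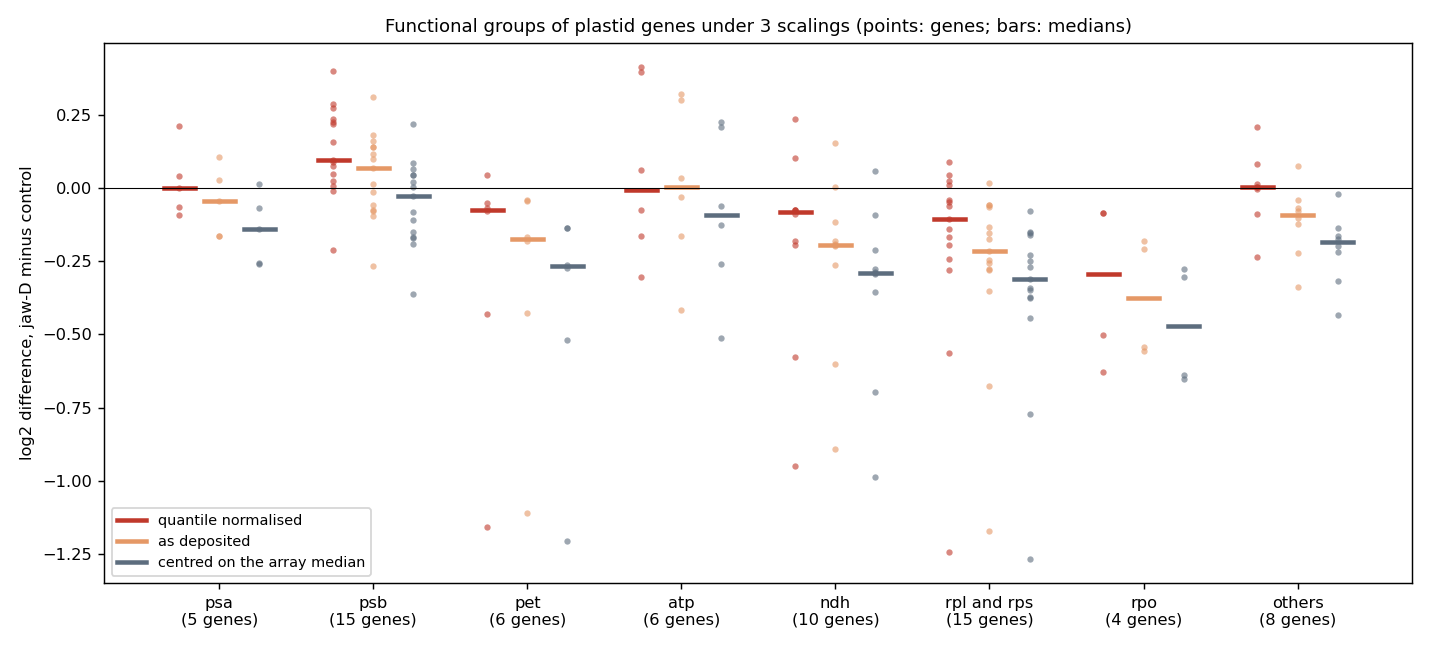
Log2 difference between jaw-D and control (y axis) of each plastid gene by functional group, under quantile normalization, as deposited and after median centring of the arrays; points are genes and bars are group medians. Except for the 6 atp genes as deposited, each group's median lies lower as deposited than after quantile normalization. In every group it is lowest when centred on the array median, which lowers every gene by the same amount from its value as deposited. The psb median is 0.09 after quantile normalization and -0.03 when centred.

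Nuclear genes of the same systems were read from the same fit. Of 57 nuclear subunits of these complexes, 11 had a named probe set, of which 0 were called higher and 4 lower, and 7 did not pass, with a median of -0.19 beside 0.01 for all probe sets and against 2.54% of those called lower. The 4 were the NDH subunits NdhL (-1.01) and NdhN (-0.71), the antenna gene LHCB4.3 (-1.44) and PSAN of photosystem I (-0.37). NdhL had 6111 and 4922 units in jaw-D, against 11147 and 11612 units in control, whereas the plastid ndh genes had the values above; the difference between the nuclear and the plastid genes was not tested. With any 1 array left out the differences were -1.16 to -0.86 for NdhL and -0.78 to -0.64 for NdhN. They were -1.52 to -1.35 for LHCB4.3 and -0.40 to -0.35 for PSAN. The 11 calls lost without the variance trend, counted above, include calls on nuclear genes. Of 48 genes listed by symbol for plastid RNA processing and editing, 18 were measured, with a median of -0.23. Against 1.64% and 2.54% of all probe sets, 1 was called higher and 2 lower, and 15 did not pass. The 2 lower were CRR41 (-0.70, adjusted p 0.0394) and CRR42 (-0.58, adjusted p 0.0299). Both are assembly factors of the NDH complex rather than RNA factors, and were picked up by their symbol, as were the NDH subunit NdhS, the iron-sulphur protein HCF101, and OTP43 and OTP87, which act on mitochondrial transcripts. Without these 6 genes, a choice made after seeing the data, the median of the other 12 was -0.037, with 1 called higher and 0 lower. Of the 12 differences 7 were negative and 5 positive. Both jaw-D values lay below both controls in CRR22 (-0.54), OTP84 (-0.45), CRR21 (-0.41), CFM3A (-0.36) and CAF1 (-0.34). This pattern held for 23.6% of all probe sets. OTP86, on the positive side, was near background. The gene called higher, OTP80, was also near background, at 153 and 188 units in jaw-D and 27.3 and 35.8 units in control, so no size is given. With any 1 array left out the differences were -0.81 to -0.58 for CRR41 and -0.62 to -0.55 for CRR42. Genes of the other fixed lists, the nuclear part of plastid transcription (31 genes) and of the plastid ribosome (14 genes), had no named probe set and were not analysed here.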

How the data were processed

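Positive microarray intensities, 1 per probe set and array on a linear scale, were used as the authors deposited them for 22810 probe sets. Every array had a 2% trimmed mean of 2500 units, so the authors had scaled the deposited intensities to a common level. The software is not given in the sources used here, and no detection calls entered. The number of arrays limits the precision. The 64 control probe sets were left out. Array medians differed by 11.0%, over the limit of 10%, so the arrays were quantile normalised. Values were taken as log2(value + 302.3), the pseudocount being the 25th percentile of all deposited values, and jaw-D was compared with control in limma 3.58.1 (lmFit and a trended eBayes, 2 residual degrees of freedom, two-sided, R 4.3.3), with Benjamini-Hochberg adjustment over all probe sets. The script was tested on simulated data. Alternatives were the values as deposited, centring on the array or the plastid median, pseudocounts 0.1 and 4 times as large, no variance trend, dim probe sets left out (mean over the 4 arrays not above 353 units), the replicate number as a block, and each array left out in turn.

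Genes were named from the platform annotation (13513 probe sets with 1 gene) through gene identifiers to the TAIR10.1 gene table, used only for names and gene order. The members, the transcript groups, the polymerase classes and the nuclear lists were chosen with earlier results of these data known. Genes were named where called, where they had the highest mean or the extreme differences of their functional group, or where they shared a transcript with a called gene; psbA, rbcL, psaA, accD, matK, clpP, cemA, the other psb genes of the named transcripts, and genes with a wide spread within a group were added after their values were seen. Near background means group means of at most 353 units, the maximum of the Bacillus controls.

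The titles number the samples 1 and 2 in both groups, but the deviations of same-numbered arrays correlated at -0.0213, so the numbers were not taken as pairs.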

Additional observations from a re-analysis of the deposited data

How the results depend on the processing

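Counts of calls depended on the processing. Higher and lower calls over the whole array numbered 248 and 978 after median centring of the arrays and 14 and 51 without the variance trend. They numbered 1002 and 1148 of the 16441 probe sets kept with dim probe sets left out. Centring on the plastid median gave 804 higher. Among the 69 plastid genes these counts were 0 and 3, 0 and 0, and 3 and 7 under the same 3 settings. As deposited 0 were called higher, centred on the plastid median 2, and with the probe sets of both gene copies added 4. Fits with 1 array left out leave 1 array in a group and are given by size only. The replicate block, fitted although the numbers were not taken as pairs, gave 157 higher and 309 lower over the array and 0 and 2 among the plastid genes, rpl33 with an adjusted p of 0.0382 and rpoC2 with 0.048, while atpH had 0.057.

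The plastid median was -0.12 as deposited, -0.21 after median centring, 0.0032 after centring on the plastid median, -0.0084 with the probe sets of both copies and -0.061 to -0.011 with 1 array left out. As deposited the medians were -0.19 for ndh, -0.091 for the others, -0.044 for psa and -0.22 for rpl and rps. After median centring they were -0.093 for atp, -0.29 for ndh, -0.19 for the others, -0.27 for pet, -0.14 for psa, -0.025 for psb, -0.31 for rpl and rps and -0.47 for rpo. After centring on the plastid median they were 0.044 for atp, 0.054 for the others and 0.050 for psa. With 1 array left out they ran over -0.11 to 0.0076 for atp, -0.15 to -0.062 for ndh, -0.0097 to 0.039 for the others, -0.28 to -0.074 for pet, -0.029 to 0.030 for psa, 0.067 to 0.22 for psb, -0.16 to -1.19e-05 for rpl and rps and -0.38 to -0.12 for rpo. The difference in share of signal was 0.0139 percentage points after quantile normalization and -0.191 to -0.0145 with 1 array left out.

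The lists of sign changes below also hold rpl2 and rpl23, whose probe sets of both copies lie outside the 69. Of the 69 genes, 13 changed sign as deposited, 19 after median centring, 4 after centring on the plastid median, and 8 to 15 with 1 array left out. Of the genes named here, those as deposited were ccsA (-0.078), cemA (-0.040), clpP (-0.12), matK (-0.10), petA (-0.042), psbH (-0.074), psbJ (-0.077), psbL (-0.056), psbZ (-0.014), rpl16 (-0.064) and rpl23 (-0.056); after median centring ccsA (-0.17), cemA (-0.14), clpP (-0.22), matK (-0.20), petA (-0.14), psbC (-0.025), psbH (-0.17), psbJ (-0.17), psbL (-0.15), psbM (-0.080), psbZ (-0.11), rpl16 (-0.16), rps15 (-0.077), ycf4 (-0.020), rpl2 (-0.0015) and rpl23 (-0.15); and after centring on the plastid median accD (0.047) and psbA (0.042). With 1 array left out, they were accD (-0.12 to 0.11), atpA (-0.41 to 1.20), ccsA (-0.033 to 0.063), clpP (-0.057 to 0.067), matK (-0.0082 to 0.016), ndhG (-1.18 to 0.023), petG (-0.62 to 0.48), psaA (-0.15 to 0.025), psaC (-0.21 to 0.030), psbA (-0.083 to 0.067), psbH (-0.053 to 0.067), psbI (-0.23 to 0.69), psbJ (-0.024 to 0.12), psbK (-0.026 to 0.83), psbL (-0.0085 to 0.059), psbM (-0.079 to 0.26), psbN (-0.47 to 0.66), rbcL (-0.19 to 0.0081), rpl14 (-0.42 to 0.13), rpl16 (-0.046 to 0.067), rpoA (-0.27 to 0.10), rpoC1 (-0.21 to 0.039) and rps15 (-0.055 to 0.24). The cause was not tested. Averaging several probe sets of a gene was not run, because each of the 69 genes has 1. With 2 arrays a group, a difference that missed the threshold is not shown to be absent.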
